A study of Rattus norvegicus with 16 samples.

Results

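The antimicrobial effectors of the rat ocular surface described here are 6 of the 14217 genes measured, *Reg3g*, *Reg3b*, *Defb4*, *Slpi*, *Lyz2* and *Camp*. Each is read by 1 probe set, so they make up 6 of 31042 probe sets. Membership was by gene symbol, and *Reg3g* and *Defb4* were included because their signal was lower with dexamethasone. Their differences between dexamethasone and the other 2 treatments are therefore given as descriptions without a test.

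RNA was taken from 16 corneas of male Wistar rats aged 12 to 16 weeks and measured on 1 Affymetrix array each, with 4 corneas per group. Naïve corneas had no suture, and no drops are named for them, whereas the corneas of the IgG, anti-*Vegf* and dexamethasone groups carried 2 sutures placed temporally, which provoke inflammatory vessel growth from the limbus. These eyes received 4 drops per day of goat IgG, of an antibody against rat *Vegf*, or of dexamethasone at 1 mg/ml, with 8 drops over 2 days, after which the tissue was collected. Both antibodies were dosed at 20 mg/ml according to the labels and at 20 µg/ml according to the methods. The tissue was the cornea free of scleral rim by the labels, and the piece from the suture to the limbus by the methods. The labels of the IgG corneas name an anti-IgG antibody, and a sutured cornea without drops was not analysed here. The comparisons ask which genes the injury moved under each treatment and where dexamethasone, a glucocorticoid, differed from blocking *Vegf*. Values are log2 signals, and *Krt12*, the keratin of the corneal epithelium, read 14.65 to 14.79 on all arrays. The highest probe set of an array read 14.69 to 14.79, so *Krt12* lay close to the top of the scale.

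The ocular surface meets microbes constantly and holds them back with secreted proteins. RegIII lectins bind bacterial cell wall sugars, defensins and cathelicidins are short cationic peptides that disrupt microbial membranes, lysozyme cleaves peptidoglycan, and secretory leukocyte protease inhibitor is both antimicrobial and a shield against neutrophil elastase. In barrier epithelia, several of these genes are known to be induced by IL-1, IL-17 and IL-22 through NF-κB, C/EBP and STAT3, while lysozyme and cathelicidin are also made by myeloid cells.

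*Reg3g* and *Reg3b* are paralogs that lie near each other on chromosome 4, with 4 annotated genes between them, among them *Reg3a* and *Reg1a*. Promoter windows from RefSeq on build GRCr8, with 250 bases before the annotated start and 50 after it, matched 4 of the 6 genes. *Defb4* and *Slpi* had no entry. The windows of *Reg3g* at chr4:112484689-112484988 on the minus strand and *Reg3b* at chr4:112419526-112419825 on the plus strand are printed 5′ to 3′ because the dexamethasone values of these paralogs are set side by side here. Capitals mark the TATA box (TATAAA) in both, the NF-κB consensus in *Reg3g* and the STAT site (TTCNNNGAA) in *Reg3b*.
*Reg3g*: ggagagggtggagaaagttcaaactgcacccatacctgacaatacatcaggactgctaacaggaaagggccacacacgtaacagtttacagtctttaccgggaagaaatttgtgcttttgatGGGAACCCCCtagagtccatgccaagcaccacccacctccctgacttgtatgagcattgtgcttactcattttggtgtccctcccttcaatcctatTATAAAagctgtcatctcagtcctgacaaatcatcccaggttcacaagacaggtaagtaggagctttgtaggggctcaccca
*Reg3b*: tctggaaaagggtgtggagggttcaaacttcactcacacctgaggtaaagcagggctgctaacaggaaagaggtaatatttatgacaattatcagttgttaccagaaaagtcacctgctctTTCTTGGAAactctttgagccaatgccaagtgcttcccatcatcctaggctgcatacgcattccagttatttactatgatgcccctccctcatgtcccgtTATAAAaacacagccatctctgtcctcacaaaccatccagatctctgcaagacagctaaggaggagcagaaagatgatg
The aligned windows were identical at 197 of 289 bases, or 68.2%. The same alignment of each with the windows of *Lyz2* and *Camp* gave 57.1% to 61.2%. TATAAA began 32 bases before the start of *Reg3g* and 29 bases before that of *Reg3b*. The NF-κB match in *Reg3g*, 128 bases before the start, was not present in the *Reg3b* window, and the STAT match in *Reg3b*, 129 bases before the start, was not present in the *Reg3g* window. The window of *Camp*, not printed here, also held an NF-κB match, 18 bases after the start. Of all 33469 windows searched on both strands, 14.2% held TATAAA, 7.51% the NF-κB consensus and 8.87% the STAT site.

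The window of *Lyz2* at chr7:54797962-54798261 on the minus strand is shown because *Lyz2* was higher with dexamethasone. Capitals mark, in order, a C/EBP site (TTGCNNAA, here on the opposite strand), the hexamer AGAACA of the glucocorticoid response element and the PU.1 core GAGGAA.
*Lyz2*: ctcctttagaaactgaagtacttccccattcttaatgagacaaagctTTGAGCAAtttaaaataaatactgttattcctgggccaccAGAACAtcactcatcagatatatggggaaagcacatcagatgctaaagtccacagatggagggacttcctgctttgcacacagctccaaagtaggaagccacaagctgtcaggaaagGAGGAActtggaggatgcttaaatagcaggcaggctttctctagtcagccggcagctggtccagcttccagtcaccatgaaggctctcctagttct
These began 203, 163 and 46 bases before the start and occurred in 10.6%, 20.7% and 27.6% of all windows. The full palindromic glucocorticoid response element was in none of the 4 windows and in 0.0149% of all windows. The motifs were picked with the sequences in view, and a match is a run of letters, not a bound site.

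On the sutured corneas, 5 of the 6 genes rose relative to naïve corneas under every treatment, with *Camp* as the exception. A gene was called relative to naïve where limma gave an adjusted p under 0.05 and the signals differed 1.5-fold or more, which 11.3% of all genes met with IgG, 12.8% with anti-*Vegf* and 12.6% with dexamethasone. In the upward direction, these shares were 6.32%, 6.82% and 8.19%. The arrays of the 5 called genes did not overlap with the naïve arrays in any of the 3 comparisons, a property of 31.3%, 31.3% and 28.3% of all genes. The 3 comparisons share the naïve arrays, and *Reg3g* and *Defb4* were chosen on the same sutured arrays.

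**Figure D1:**
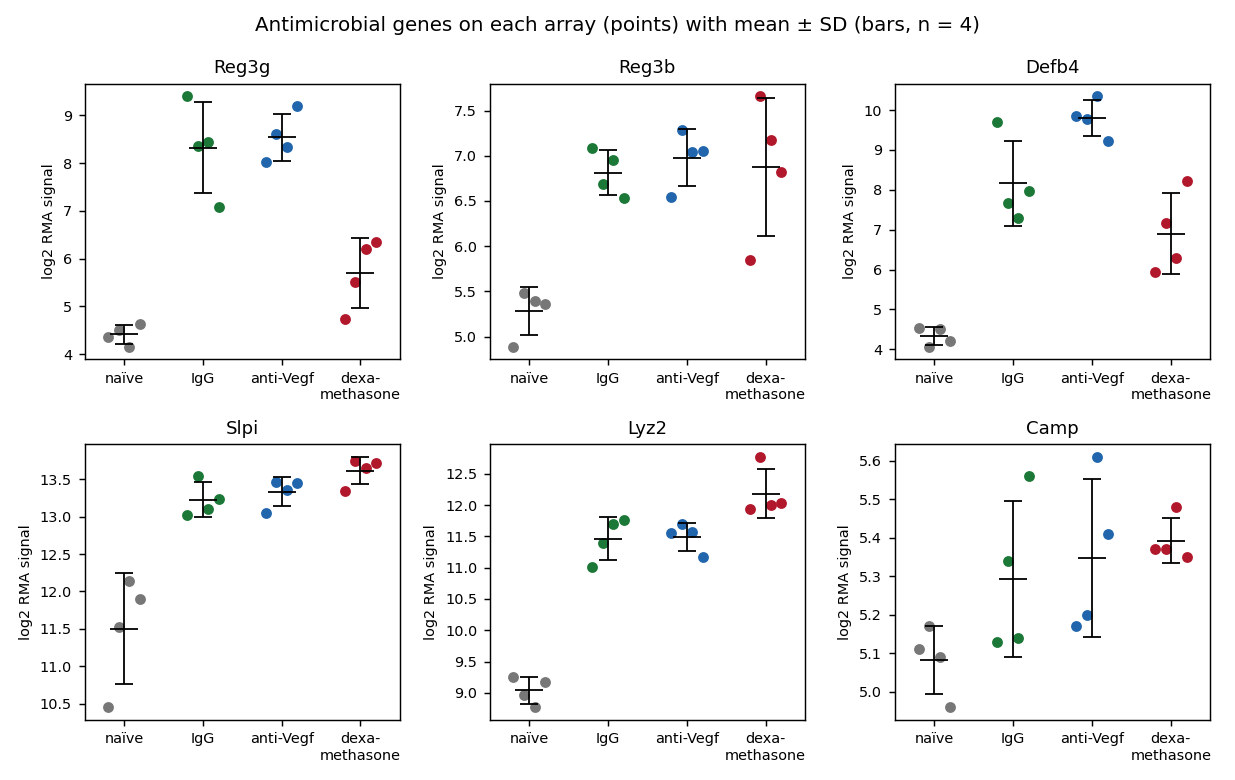
Log2 signal of the 6 antimicrobial genes on each of the 16 arrays (points) by group, with the mean and SD of 4 arrays (bars). *Reg3g* lay between 4.74 and 6.35 with dexamethasone and between 7.09 and 9.40 with IgG, while *Lyz2* lay highest with dexamethasone and *Camp* stayed between 4.96 and 5.61 on all arrays.

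*Reg3g* encodes the secreted lectin RegIIIγ, which targets Gram-positive bacteria in the mouse gut. In naïve corneas it read 4.35, 4.50, 4.16 and 4.64, between the 12.2 and 18.6 percentile of the probe sets of an array. It read 9.40, 8.36, 8.43 and 7.09 with IgG, and 8.03, 8.61, 8.34 and 9.19 with anti-*Vegf*. With dexamethasone it read 4.74, 5.50, 6.21 and 6.35. All IgG and anti-*Vegf* arrays lay above all others, and the lowest dexamethasone array, F25, lay only 0.10 above the highest naïve array.

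*Reg3g* rose 15.0-fold with IgG, by 3.91 on the log2 scale (SE 0.41, n = 4 per group, limma adjusted p = 6.52e-06). With anti-*Vegf* it rose 17.5-fold, by 4.13 (adjusted p = 3.51e-06 from limma). With dexamethasone it rose 2.44-fold, by 1.29 (SE 0.41, limma adjusted p = 0.0317). That last call depended on the arrays, since leaving out dexamethasone F26, F27 or F30 or naïve 1, 2 or 3 gave limma adjusted p of 0.0521, 0.0914, 0.100, 0.0643, 0.0549 and 0.0762. Relative to IgG, *Reg3g* was 6.15-fold lower with dexamethasone (log2 difference −2.62, 95% confidence interval −3.48 to −1.76), and relative to anti-*Vegf* 7.18-fold lower (−2.84, −3.71 to −1.98). Its arrays did not overlap in either comparison, as for 5.89% and 5.08% of all genes in the downward direction. These values describe the difference for which the gene was chosen. Between anti-*Vegf* and IgG, the difference was 0.22 with overlapping arrays (95% confidence interval −0.64 to 1.09, limma adjusted p = 0.984).

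*Reg3b*, which encodes the related lectin RegIIIβ, had another profile across the treatments. It read 4.89, 5.48, 5.39 and 5.36 in naïve corneas, then 7.09, 6.69, 6.95 and 6.53 with IgG. With anti-*Vegf* it read 6.54, 7.29, 7.04 and 7.05. With dexamethasone it read 5.85, 7.66, 7.17 and 6.82, so this group held both the highest and the lowest sutured cornea. The 3 sutured groups overlapped with each other and not with the naïve group.

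*Reg3b* rose 2.89-fold with IgG (log2 difference 1.53, SE 0.28, limma adjusted p = 0.000865), 3.24-fold with anti-*Vegf* and 3.01-fold with dexamethasone (limma adjusted p = 0.00035 and 0.000695). The difference between dexamethasone and IgG was 0.06, with a 95% confidence interval from −0.54 to 0.66 (limma adjusted p = 0.928). Between dexamethasone and anti-*Vegf* it was −0.11, from −0.70 to 0.49 (limma adjusted p = 0.879). Cross-hybridization between the probe sets of the Reg family was not tested. *Reg3a* and *Reg1a*, annotated between them, were not called against naïve in any group, with log2 differences of 0.12 to 0.18 and −0.33 to −0.13. Their signals were dim, at 3.35 to 3.91 and 5.11 to 5.88, and *Reg3a* lay below even naïve *Reg3g* (4.16 to 4.64). Without detection calls, a gene that did not rise and a probe set that did not detect it cannot be told apart.

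*Defb4* encodes a beta-defensin, the class of peptide that epithelia release on contact with microbes. In naïve corneas it was at 4.53, 4.07, 4.51 and 4.20, between the 10.8 and 17.1 percentile of an array. It read 9.71, 7.68, 7.29 and 7.98 with IgG and 9.85, 9.77, 10.35 and 9.23 with anti-*Vegf*. With dexamethasone it read 5.95, 7.17, 6.28 and 8.21. Array F17 stood alone at the top of the IgG group, the anti-*Vegf* arrays were uniformly high, and dexamethasone F30 lay above 3 of the 4 IgG arrays.

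*Defb4* rose 14.3-fold with IgG (log2 difference 3.84, SE 0.48, limma adjusted p = 3.44e-05), 44.5-fold with anti-*Vegf* (5.48, adjusted p = 1.05e-06) and 5.97-fold with dexamethasone (2.58, adjusted p = 0.00103). The rise with anti-*Vegf* was the largest of the 6 genes in any of these comparisons. As a description only, *Defb4* was 7.46-fold lower with dexamethasone than with anti-*Vegf* (−2.90, 95% confidence interval −3.92 to −1.88) without overlap. It was 2.40-fold lower than with IgG (−1.26, −2.28 to −0.24) with overlapping arrays, and without IgG F17 that difference was −0.75. Anti-*Vegf* exceeded IgG by 1.64, or 3.11-fold (0.62 to 2.66), with overlapping arrays and a limma adjusted p of 0.462 over all probe sets (unadjusted 0.00369).

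**Figure D2:**
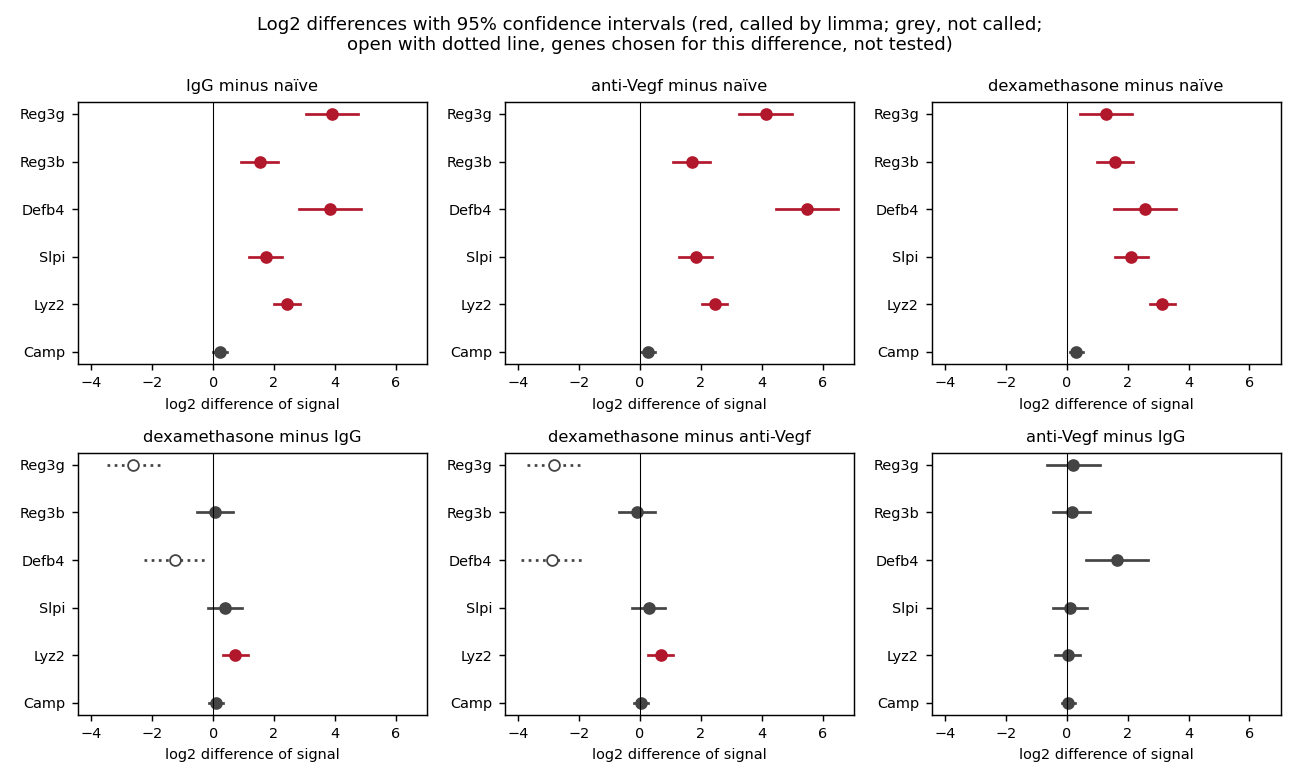
Log2 differences of the 6 genes in the 6 comparisons, with 95% confidence intervals from limma (4 arrays per group). *Reg3g* and *Defb4* lie below 0 in both dexamethasone comparisons, shown open because they were chosen for it, while *Lyz2* lies above 0 at 0.72 and 0.69 and *Reg3b* near 0 at 0.06 and −0.11.

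*Slpi*, the secretory leukocyte protease inhibitor, was among the brightest probe sets of the cornea. Naïve corneas were at 10.45, 11.52, 12.14 and 11.90, and the sutured corneas at 13.02, 13.55, 13.11 and 13.24 with IgG, 13.05, 13.47, 13.36 and 13.45 with anti-*Vegf*, and 13.35, 13.75, 13.65 and 13.72 with dexamethasone. All sutured arrays had *Slpi* at or above the 99.4 percentile, and naïve 1 was the lowest array of all. *Slpi* rose 3.31-fold with IgG (log2 difference 1.73, SE 0.26, limma adjusted p = 0.000166), 3.55-fold with anti-*Vegf* and 4.33-fold with dexamethasone (adjusted p = 8.98e-05 and 2.85e-05). The difference between dexamethasone and IgG was 0.39 (−0.16 to 0.94, limma adjusted p = 0.379), and that between dexamethasone and anti-*Vegf* 0.29 (−0.26 to 0.83, adjusted p = 0.573). The highest probe set of an array read 14.69 to 14.79 on these arrays, so *Slpi* lay close to the top of the scale.

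*Lyz2* encodes the lysozyme of macrophages and neutrophils, which cleaves bacterial peptidoglycan. It read 9.26, 8.97, 8.77 and 9.17 in naïve corneas, 11.01, 11.39, 11.70 and 11.76 with IgG, and 11.55, 11.69, 11.57 and 11.17 with anti-*Vegf*. With dexamethasone it read 11.93, 12.77, 12.00 and 12.03. Every dexamethasone array lay above every IgG and anti-*Vegf* array, by a gap of 0.17 and 0.24, and F26 stood above the other dexamethasone arrays. Of all genes, 11.3% and 8.81% lay as fully above the IgG and anti-*Vegf* arrays.

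*Lyz2* rose 5.36-fold with IgG, 5.48-fold with anti-*Vegf* and 8.82-fold with dexamethasone (log2 difference 3.14, SE 0.19, limma adjusted p = 2.98e-08). The first 2 rises were 2.42 and 2.45 on the log2 scale (adjusted p = 4.17e-07 and 3.64e-07). Of the 4 genes tested between dexamethasone and IgG, *Lyz2* was the only one called at a limma adjusted p under 0.05, as were 10.6% of all genes and 7.41% in the upward direction. It was 1.65-fold higher with dexamethasone than with IgG (0.72, 95% confidence interval 0.31 to 1.13, limma adjusted p = 0.0287). Relative to anti-*Vegf*, where 7.13% of all genes were called and 4.63% upward, *Lyz2* was again the only one of 4, at 1.61-fold higher (0.69, 0.27 to 1.10, limma adjusted p = 0.0448).

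Both calls were lost without array F26, with differences of 0.52 and 0.49 (limma adjusted p = 0.0831 and 0.122), and the direction did not change. Without IgG F17 or F19, the difference from IgG was 0.57 and 0.69 (limma adjusted p = 0.0904 and 0.0726). The call against anti-*Vegf* was lost on leaving out any of 10 of the 16 arrays, with differences from 0.49 to 0.77 over all 16 arrays left out in turn. Between anti-*Vegf* and IgG the *Lyz2* difference was 0.03 (−0.38 to 0.45).

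*Camp*, the cathelicidin gene, stayed dim. It read 5.11, 5.17, 5.09 and 4.96 in naïve corneas, 5.13, 5.34, 5.14 and 5.56 with IgG, 5.17, 5.20, 5.61 and 5.41 with anti-*Vegf*, and 5.37, 5.37, 5.48 and 5.35 with dexamethasone. All 16 values lay under the 40 percentile of their array, and the deposited values carry no detection call that would tell signal from background. The log2 differences from naïve were 0.21, 0.27 and 0.31 (limma adjusted p = 0.164, 0.0825 and 0.0462). The last passed the adjusted p but, at 1.24-fold, not the fold limit.

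Between anti-*Vegf* and IgG, 0 of the 6 genes passed a limma adjusted p under 0.05, as did 0.00% of all genes. At an unadjusted p under 0.05 *Defb4* passed, as did 942 of 14217 genes (6.63%). Confidence intervals of the other 5 genes spanned 0.

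Of 50 other antimicrobial protein genes listed, 33 were measured. With IgG 8 rose and 1 fell relative to naïve, with anti-*Vegf* 7 rose and 2 fell, and with dexamethasone 9 rose and 2 fell. Of all genes, 6.32%, 6.82% and 8.19% rose and 5.02%, 5.94% and 4.45% fell in these comparisons. The median log2 differences of the list were 0.18, 0.06 and 0.04, against −0.01, −0.01 and 0.00 over all genes. The list thus held a few large rises and many genes with little difference.

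The largest rises were those of *S100a9* and *S100a8*, the subunits of calprotectin, which withholds zinc and manganese from microbes and is abundant in neutrophils. *S100a9* read 7.04 to 7.32 in naïve corneas, 13.19 to 14.05 with IgG, 13.21 to 13.67 with anti-*Vegf* and 11.55 to 14.41 with dexamethasone. The lowest and highest sutured values were on dexamethasone F25 and F26. Like *Slpi*, *S100a9* lay close to the top of the scale in its highest sutured corneas. Its log2 differences from naïve were 6.33, 6.23 and 5.83 (SE 0.39, limma adjusted p = 3.93e-08, 4.81e-08 and 5.96e-08), and those of *S100a8* were 5.74, 5.54 and 4.83. *Lcn2*, which captures bacterial siderophores, rose by 1.52, 1.47 and 1.63, and *Ccl20*, a chemokine with antimicrobial activity, by 1.82, 1.58 and 1.33. *Pglyrp1*, a peptidoglycan recognition protein, rose by 0.79, 0.72 and 0.59, although with dexamethasone its arrays overlapped with naïve and the call was lost without dexamethasone F26 or F30 or naïve 1 or 2 (0.43 without naïve 2, limma adjusted p = 0.0915). *Cst6*, a cystatin protease inhibitor of epithelia, fell by 0.77, 0.97 and 0.93 on the log2 scale, and *Pla2g2a*, a secreted phospholipase that attacks bacterial membranes, fell by 1.93 with anti-*Vegf*.

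**Figure D3:**
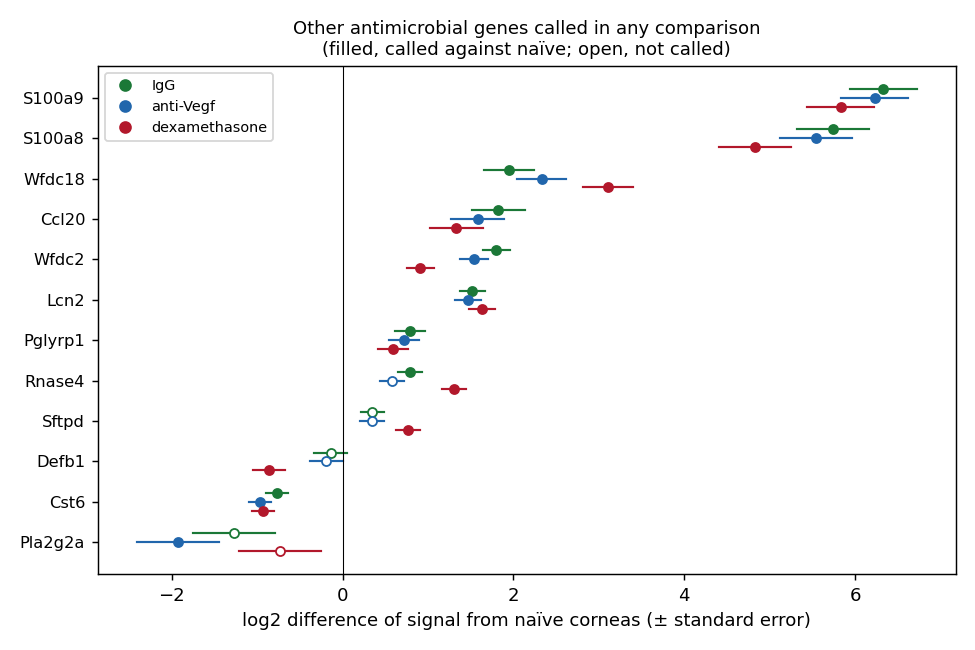
Log2 differences from naïve corneas of the 12 other antimicrobial genes called in at least 1 comparison, for IgG, anti-*Vegf* and dexamethasone (points, with the standard error; filled points were called). *Wfdc18* and *Rnase4* each rose more with dexamethasone (3.11 and 1.30) than with IgG or anti-*Vegf*, and *Wfdc2* rose less with it (0.91). *Defb1* (−0.86) and *Sftpd* (0.77) were called against naïve only with dexamethasone.

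Between dexamethasone and IgG, 2 of the 33 genes were higher and 2 lower, where 7.41% of all genes were higher and 3.16% lower. Relative to anti-*Vegf*, 1 was higher and 2 lower, where 4.63% of all genes were higher and 2.50% lower. The list medians of −0.13 and −0.02 stood beside 0.02 over all genes in both comparisons, and between anti-*Vegf* and IgG 0 of 33 were called. As the 2 dexamethasone comparisons share the dexamethasone arrays, their values are given side by side. *Wfdc2*, a WAP domain protein like *Slpi*, read 6.76 to 7.12 in naïve corneas, 8.54 to 9.05 with IgG, 8.25 to 8.79 with anti-*Vegf* and 7.48 to 8.23 with dexamethasone, whose arrays lay between the naïve and the other treated arrays. It was lower with dexamethasone by −0.89 relative to IgG and −0.63 relative to anti-*Vegf* (SE 0.16, limma adjusted p = 0.00292 and 0.0271). The second call was lost without anti-*Vegf* F2 or F6 or dexamethasone F25 or F27, with differences of −0.52, −0.60, −0.51 and −0.58.

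*Defb1*, the beta-defensin that epithelia make without a stimulus, read 10.29 to 10.88 in naïve corneas, 10.24 to 10.74 with IgG, 10 to 10.63 with anti-*Vegf* and 9.42 to 10.14 with dexamethasone. The dexamethasone arrays lay below all naïve and IgG arrays and overlapped with anti-*Vegf*. *Defb1* was lower with dexamethasone by −0.72 and −0.66 (SE 0.19, limma adjusted p = 0.0227 and 0.0421) relative to IgG and anti-*Vegf*, and by −0.86 relative to naïve (limma adjusted p = 0.00309). It was not called against naïve with IgG or anti-*Vegf* (−0.14 and −0.19, limma adjusted p = 0.639 and 0.495). The call relative to IgG was lost without IgG F19 or F23 or dexamethasone F27 or F30, and that relative to anti-*Vegf* without F1x, F2 or F7 of its own group, IgG F19, or dexamethasone F25, F27 or F30. Without F27, for example, the differences were −0.63 and −0.57 (limma adjusted p = 0.0741 and 0.118).

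In the other direction, *Wfdc18*, also a WAP domain protein, read 7.26 to 8.04 with dexamethasone and 5.75 to 7.04 with IgG, a difference of 1.16 (SE 0.29, limma adjusted p = 0.0197), which was 0.90 without IgG F19 and 1.04 without dexamethasone F26 (limma adjusted p = 0.0635 and 0.0625). Relative to anti-*Vegf*, at 6.40 to 7.45, it was 0.78 with overlapping arrays (limma adjusted p = 0.125). *Rnase4*, a secreted ribonuclease, was higher with dexamethasone by 0.51 and 0.72 relative to IgG and anti-*Vegf* (SE 0.14, limma adjusted p = 0.0348 and 0.00861). A second, dimmer probe set of *Rnase4* gave 0.12 and 0.38 (limma adjusted p = 0.634 and 0.106), and the call of the brighter one relative to IgG was lost without IgG F17 or F19 or dexamethasone F25, F26 or F30 (0.42 to 0.53 without each of these).

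Of 28 listed IL-17, IL-22 and IL-1 signalling genes, 21 were measured. The list holds inducers of antimicrobial genes and also inhibitors, among them *Il1rn*, *Socs3*, *Nfkbia* and *Il22ra2*. In each treatment 11 of the 21 rose and 0 fell relative to naïve, where 6.32%, 6.82% and 8.19% of all genes rose with IgG, anti-*Vegf* and dexamethasone. Inhibitors were among the risen genes, *Il1rn*, *Socs3* and *Nfkbia* with both antibodies and *Socs3*, *Nfkbia* and *Il22ra2* with dexamethasone. *Il17a*, *Il22*, *Il36a* and *Il22ra1* were not measured, and *Il17f*, with group means of 3.14 to 3.41, was not called. *Il1r1* also counts as risen, but its dimmer probe sets gave 0.13 to 0.57 and were not called. The list medians of the log2 differences were 0.91, 0.80 and 0.77, against −0.01, −0.01 and 0.00 over all genes. *Il1b*, the inflammatory cytokine, rose by 3.65, 3.66 and 3.45 with IgG, anti-*Vegf* and dexamethasone (SE 0.31, limma adjusted p = 6.94e-07, 7.33e-07 and 1.35e-06). *Cebpd*, a C/EBP transcription factor, rose by 3.56, 3.13 and 3.35, and *Stat3* by 1.79, 1.47 and 1.00, the last being 0.87 without dexamethasone F26 (limma adjusted p = 0.0545). A dimmer probe set of *Stat3* gave 0.85, 0.77 and 0.79, called in each treatment. A dimmer probe set of *Cebpd* gave 0.17, −0.04 and 0.06 and another 3.95, 3.30 and 3.32.

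*Socs3*, a feedback inhibitor and target of STAT3, read 6.36 to 6.48 in naïve corneas, 8.90 to 9.42 with IgG, 8.01 to 8.89 with anti-*Vegf* and 7.01 to 8.35 with dexamethasone. It was lower with dexamethasone than with IgG by −1.24 (SE 0.24, limma adjusted p = 0.00497) and without overlap. *Socs3* was the only one of the 21 genes called lower than with IgG, where 3.16% of all genes were lower. *Nfkbia*, the NF-κB inhibitor IκBα, was higher with dexamethasone by 0.67 and 0.77 relative to IgG and anti-*Vegf* (SE 0.17, limma adjusted p = 0.0215 and 0.0139), the first being lost without IgG F19 or F22 or dexamethasone F26 (limma adjusted p = 0.0572, 0.0677 and 0.0622). *Il22ra2*, the soluble receptor that binds IL-22, was higher by 0.61 and 0.71 (SE 0.18, limma adjusted p = 0.0486 and 0.0302), with overlapping arrays at signals of 3.59 to 5.22. Only 6 of 23 alternatives kept the call relative to IgG and 15 of 23 that relative to anti-*Vegf*. *Nfkbia* and *Il22ra2* were the 2 of 21 genes called higher in both comparisons, where 7.41% and 4.63% of all genes were higher. Relative to anti-*Vegf*, 0 of the 21 were lower, where 2.50% of all genes were. Between anti-*Vegf* and IgG 0 of the 21 were called.

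Across the 16 arrays, the genes whose signal followed *Reg3g* most closely were *Lrat* (Pearson r 0.95), *Cnfn* (0.94), *Tenm4* (0.94), *Rbp2* (0.94), *Opn3* (0.93) and *Sytl2* (0.93), out of 987 genes with an SD of at least 0.5. For deviations from the group means, r was lower, at 0.45, 0.69, 0.55, 0.72, 0.65 and 0.39. *Lrat*, which esterifies retinol, averaged 4.46 ± 0.30 in naïve corneas, 9.06 ± 0.08 with IgG, 8.97 ± 0.75 with anti-*Vegf* and 6.14 ± 0.86 with dexamethasone (SD, n = 4). *Cnfn*, a cornified envelope protein, averaged 7.55 ± 0.29, 10.42 ± 0.64, 10.71 ± 0.39 and 9.25 ± 0.61 in the same order. *Rbp2*, a cellular retinol-binding protein, averaged 10.08 ± 0.25, 12.29 ± 0.22, 12.32 ± 0.24 and 11.42 ± 0.44.

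For *Defb4* the closest were *Sfxn5* (0.94), *Sdr16c5* (0.93), *Sytl2* (0.93), *LOC102549097* (0.93), *Rbp2* (0.92) and *Cnfn* (0.92), with r within groups of 0.58, 0.33, 0.68, 0.07, 0.56 and 0.41. *Sytl2*, *Rbp2* and *Cnfn* were among the 6 closest genes of both *Reg3g* and *Defb4*. Both were chosen for their lower signal with dexamethasone, so closest genes in common and the correlation between them are not independent of that choice. *Sdr16c5*, a retinol dehydrogenase, averaged 7.59 ± 0.12 in naïve corneas, 9.07 ± 0.24 with IgG, 9.52 ± 0.35 with anti-*Vegf* and 8.59 ± 0.27 with dexamethasone (SD, n = 4). *Reg3g* and *Defb4* correlated with each other at 0.89 over the 16 arrays and at 0.42 within groups, and *Reg3g* with *Reg3b* at 0.73 and 0.54. *Lyz2* was closest to *Igsf6* (0.99), *C1r* (0.99) and *Fcgr2b* (0.98), and *Reg3b* to *Ptprc* (0.94), *Fblim1* (0.94) and *Vegfa* (0.93). These correlations describe arrays that share group effects and carry no test.

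In bulk tissue, fewer cells of a type and less RNA per cell cannot be told apart. Of 9 neutrophil markers measured, 5, 5 and 6 rose with IgG, anti-*Vegf* and dexamethasone, and 0 differed between treatments. These rises stand beside 6.32%, 6.82% and 8.19% of all genes. Dexamethasone differed from IgG in 10.6% of all genes and from anti-*Vegf* in 7.13%, so 0 of 9 lies near these shares. The mean of the 9 neutrophil markers was 5.15 to 5.23 in naïve corneas, 7.41 to 7.68 with IgG and 7.30 to 7.41 with anti-*Vegf*. With dexamethasone it was 6.74 to 8.00, where F26 was highest and F25 lowest. The 9 include *S100a8* and *S100a9*, which had their largest rises in each treatment and are also among the antimicrobial genes above. The neutrophil mean and those genes are therefore not separate measures. Of 11 monocyte and macrophage markers other than *Lyz2*, 7, 6 and 6 rose, with means of 5.81 to 6.30, 6.84 to 7.64, 6.80 to 7.18 and 6.83 to 7.29. *Cd68* was the only one called between treatments, lower with dexamethasone by −0.86 and −0.81 relative to IgG and anti-*Vegf* (limma adjusted p = 0.00154 and 0.00382), opposite to *Lyz2*. Of 10 pan-leukocyte markers, 9, 9 and 8 rose and 0 differed between treatments. The part of leukocyte numbers in the rise of *Lyz2* was not tested.

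**Figure D4:**
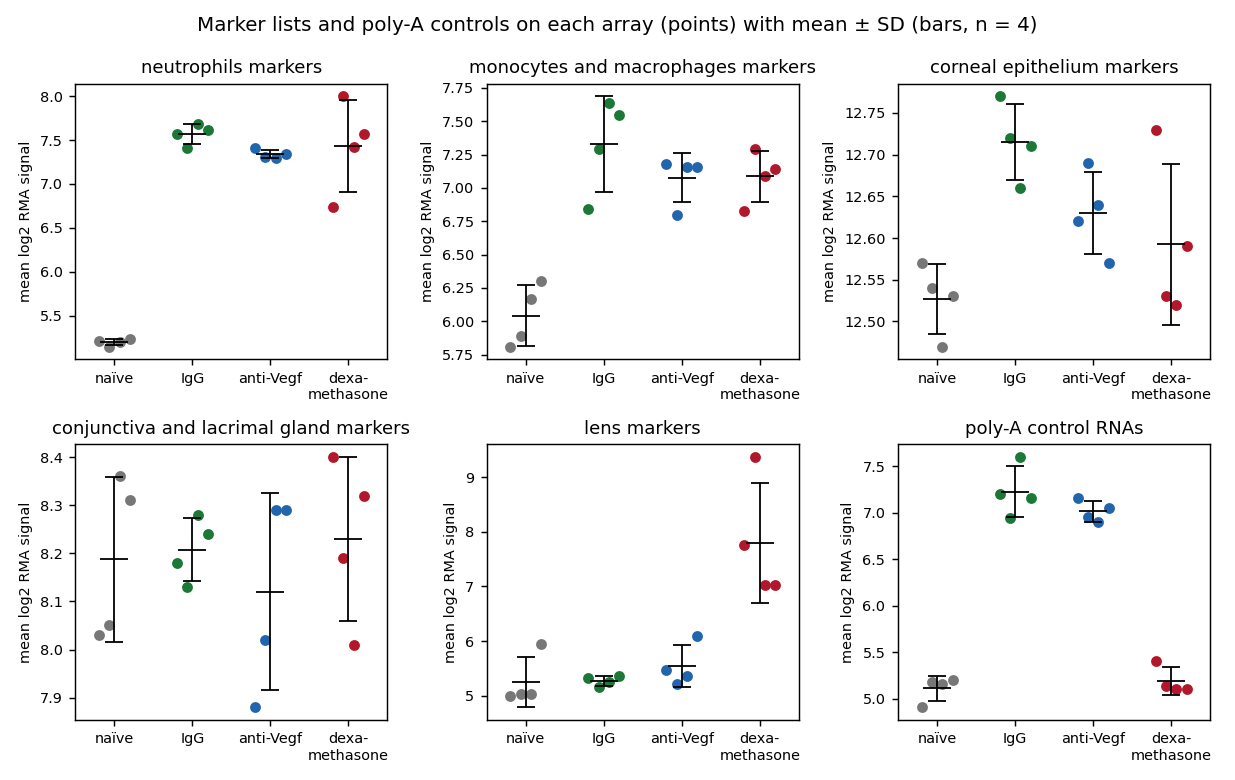
Mean log2 signal of the neutrophil, macrophage, corneal epithelium, conjunctiva and lens marker lists and of the poly-A control RNAs on each array (points), with the mean and SD of 4 arrays (bars). The neutrophil marker mean was 5.15 to 5.23 in naïve corneas and 6.74 to 8.00 in sutured ones, the lens marker mean reached 9.37 on dexamethasone F26, and the poly-A controls separate IgG and anti-*Vegf* arrays from naïve and dexamethasone arrays.

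The mean of 11 corneal epithelium markers was 12.47 to 12.57 in naïve corneas, 12.66 to 12.77 with IgG, 12.57 to 12.69 with anti-*Vegf* and 12.52 to 12.73 with dexamethasone. Called higher than naïve were 3, 2 and 1 of these 11 markers with IgG, anti-*Vegf* and dexamethasone, and 0 were called lower. The shares of all genes called higher were 6.32%, 6.82% and 8.19%. The 11 markers include *Krt12*, whose signal lay close to the top of the scale. *Ehf*, an epithelial transcription factor, was the only one called between treatments, lower with dexamethasone by −0.87 and −0.90 relative to IgG and anti-*Vegf* (limma adjusted p = 0.000331 and 0.000502). The mean of 12 conjunctiva and lacrimal gland markers overlapped in all groups, at 7.88 to 8.40. Of these 12, *Aqp5*, a water channel, was called higher with dexamethasone than with IgG and anti-*Vegf*, by 0.35 and 0.31 (limma adjusted p = 0.00663 and 0.0158). The mean of 7 keratocyte markers was 10.72 to 10.90 in naïve corneas, 10 to 10.46 with IgG, 9.63 to 10.32 with anti-*Vegf* and 10.17 to 10.61 with dexamethasone. Called lower than naïve were 3, 4 and 3 of these 7 with IgG, anti-*Vegf* and dexamethasone, and 0 were called higher. The shares of all genes called lower were 5.02%, 5.94% and 4.45%. Of the 7 keratocyte markers, *Aldh1a1* and *Col5a1* were called higher with dexamethasone than with anti-*Vegf*, by 0.69 and 0.83 (limma adjusted p = 0.0141 and 0.0285). Between dexamethasone and IgG 0 of them were called. Their part in the differences of the antimicrobial genes was not tested. The mean of 7 lens markers was 4.99 to 6.09 on the arrays without dexamethasone and 7.02 to 9.37 with it, and 4 of the 7 were called higher relative to both IgG and anti-*Vegf*. The part of lens RNA in the dexamethasone differences was not tested.

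The poly-A control RNAs, which are added to a sample during labelling, averaged 7.22 ± 0.27 with IgG and 7.02 ± 0.12 with anti-*Vegf*, against 5.19 ± 0.15 with dexamethasone and 5.11 ± 0.14 in naïve corneas (SD, n = 4). The dexamethasone arrays thus differed from IgG and anti-*Vegf* arrays by −2.03 and −1.82 in a measure that does not come from the cornea (exact permutation test, two-sided, p = 0.029 each, the smallest that 4 against 4 allows). The difference between 5′ and 3′ probe sets of *Gapdh*, a sign of RNA length, was −0.38 ± 0.07 with dexamethasone and −0.30 ± 0.15 in naïve corneas, against −0.07 ± 0.05 and −0.11 ± 0.04 with IgG and anti-*Vegf*. *Reg3g* and *Defb4*, low in naïve and dexamethasone corneas, and *Lyz2*, high with dexamethasone and low in naïve corneas, were measured on these same arrays, and the part of labelling or RNA length in their differences was not tested.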

How the data were processed

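The measurements are log2 signals of Affymetrix probe sets, which the authors background-corrected, normalized with RMA in Affymetrix Expression Console and transcription console, and deposited in 1 table of 16 arrays. They were used without further normalization or pseudocount, and array medians lay between 6.551 and 6.618. The 57 control probe sets were left out of the tests, and a gene was read from its brightest probe set with 1 symbol (20826 of 31042 probe sets, through the platform annotation). Arrays have no read depth, so precision is limited by 4 arrays per group. The labels do not say that the corneas of a group came from separate experiments, so p-values measure the spread between these corneas.

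Log2 signals were fitted with limma 3.58.1 (R 4.3.3) over all 16 arrays, estimating 1 mean for each group, 12 residual degrees of freedom, moderated variances and Benjamini-Hochberg adjustment over 31042 probe sets. The limits against naïve corneas, an adjusted p below 0.05 and 1.5-fold, follow the methods. Control probe sets were compared by exact permutation tests. Promoters were searched with Python 3.11.15, pandas 2.3.3 and Biopython 1.88, and plots drawn with matplotlib 3.10.9. The fit was tested on simulated data.

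The genes, lists (antimicrobial proteins, IL-17, IL-22 and IL-1 signalling, neutrophils, monocytes and macrophages, pan-leukocyte, corneal epithelium, keratocytes, conjunctiva and lacrimal gland, and lens) and tests were chosen with earlier results of these data known. Named genes were the 6 members, the 6 genes most correlated with a member, and called genes of the pathway lists, at most 8 per comparison. *Reg3a*, *Reg1a*, *Krt12*, *Cd68*, *Ehf*, *Aqp5*, *Aldh1a1*, *Col5a1*, *Il17f*, *Il1rn* and *Sftpd* were named outside this rule after their values were seen. Alternatives were ordinary variances, a trended robust fit, array weights, only the compared groups, cyclic loess, centring on reference genes, a filter on dim probe sets, averaging the probe sets of a gene, no fold limit and leaving out each array.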

Additional observations from a re-analysis of the deposited data

Results flagged for a closer look

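With dexamethasone, *Lyz2* on array F26 stood apart from the other arrays of its group, at 12.77 against 11.93 to 12.03, a gap of 0.883 of the group's range. The same array had the highest neutrophil marker mean (8.00), the highest pan-leukocyte mean (7.92) and the highest lens marker mean (9.37) of the dexamethasone group. The part of these in the *Lyz2* value was not tested.

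*Camp* on dexamethasone array F27 was at 5.48 against 5.35 to 5.37 on the other 3 arrays, a gap of 0.84 of the range, although this range is small and the signal dim. Of the 24 groups of 4 arrays examined, these 2 had such a gap, and chance gives one in about 1 of 20 groups.

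The rise of *Lyz2* relative to naïve corneas differed between treatments, being larger with dexamethasone by 0.72 than with IgG and by 0.69 than with anti-*Vegf* on the log2 scale (limma adjusted p = 0.0287 and 0.0448). The first call held in 19 of 24 alternatives and the second in 11 of 24. Both were lost without dexamethasone F26.

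Outside the corneal genes, the poly-A control RNAs were higher than in naïve corneas by 2.11 with IgG and by 1.9 with anti-*Vegf* (exact permutation test, two-sided, p = 0.029 each), and by 0.08 with dexamethasone (p = 0.57).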

How the results depend on the processing

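All calls of *Reg3b*, *Defb4*, *Slpi* and *Lyz2* against naïve corneas kept their direction and side of the threshold in the alternatives run. *Reg3g* with dexamethasone did so in 18 of 25, being lost with ordinary variances (1.29, limma adjusted p = 0.0718) and without single arrays (range 1.07 to 1.61). The *Lyz2* call relative to IgG was kept in 19 of 24 and that relative to anti-*Vegf* in 11 of 24. The number of called genes relative to IgG was accordingly 0 with ordinary variances and with only the compared groups, and 0 to 1 without single arrays. Relative to anti-*Vegf* it was 0 in these 2 settings and on averaging the probe sets of each gene, and 0 to 1 without single arrays. Of the other antimicrobial genes, 4 were called between dexamethasone and IgG, but 2 with ordinary variances and 1 to 5 without single arrays. Relative to anti-*Vegf* 3 were called, but 1 with ordinary variances and 1 with only the compared groups. Why these counts moved was not tested.

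Small differences changed sign. *Lyz2* between anti-*Vegf* and IgG was −0.03 with array weights and −0.12 to 0.14 without single arrays. Without single arrays, *Reg3b* ranged from −0.20 to 0.40 between dexamethasone and IgG and from −0.37 to 0.24 between dexamethasone and anti-*Vegf*. *Reg3g* ranged from −0.19 to 0.58 between anti-*Vegf* and IgG. *Camp* ranged from −0.01 to 0.14 between dexamethasone and anti-*Vegf* and from −0.04 to 0.14 between anti-*Vegf* and IgG. *Camp* did not pass the filter on dim probe sets, so it has no value there. Centring on 6 measured reference genes shifted the median of all genes by −0.091, −0.114 and −0.093 relative to naïve with IgG, anti-*Vegf* and dexamethasone. No paired analysis was possible because the labels give no replicate numbers shared between groups. Precision is limited by 4 arrays per group, the deposited values hold no detection calls, and shared signal between probe sets of related genes was not tested.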
